A study of Rattus norvegicus with 60 samples.

Results

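The CpG-dense regions described here are those of a deposited list of rat regions, named by its authors as differentially methylated, that held 0.05 or more CpGs per base. Density was taken as the highest number of CpGs that any library listed for a region, divided by its length (end minus start). By that rule 1046 of 2519 regions were CpG-dense. Neither the methylation level nor the treatment entered the rule, but the list from which they were drawn had already been selected for a difference between the same libraries. All values of the contrast below are therefore given as a description of a selected list and are not independent evidence of a difference.

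Bisulfite-converted DNA was sequenced from dorsal root ganglia, where the cell bodies of sensory neurons sit among satellite glia and other cells. The rats were SD rats. The 10 control libraries came from untreated rats and the 10 CFA libraries from rats that had received 0.1 mL of complete Freund's adjuvant, a suspension of killed mycobacteria in oil, under the skin of 1 foot, a model of chronic inflammatory pain. Age, sex, the interval after injection and the side of the ganglia relative to the injected foot are not given in the labels, and a whole ganglion mixes cell types, so a change of level and a change of cell mixture cannot be told apart. The labels' protocols speak of 10 randomly chosen pairs of treated and untreated rats but do not say whether a library is 1 animal, so the p-values measure the spread between these libraries.

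In mammals, methyl groups are placed mainly on cytosines that are followed by guanine. Most such CpG sites in the genome lie far apart and are methylated, whereas sites packed closely together, as in the CpG islands at many promoters, are usually unmethylated. A level between these extremes in a tissue can come from sites that differ between cells, between the 2 copies of a chromosome, or between neighbouring sites. Genes at the regions were not analysed here, and no sequence is printed, because the files use the build rn4 and no rn4 genome was used. Coordinates are those of the files on rn4.

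The dense regions were shorter than the others, and a larger share of them held many sites. Length and CpG number make up the density rule, so these differences are set in part by it and are only described. Their length ran from 19 to 679 bases with a median of 150, against 201 to 1392 bases and a median of 368 in the 1473 sparser regions. The median of the highest CpG number was 10 in the dense and 11 in the sparser regions. Exactly 10 CpGs was the highest number in 549 dense regions (52.5%) and in 674 sparser ones (45.8%). No dense region had fewer than 10, and 8 sparser ones had 9. At 20 CpGs or more stood 55 dense regions (5.26%) and 37 sparser ones (2.51%), with up to 54 and 34 CpGs. The typical CpG number of a region, its median over libraries, had a median of 10 in the dense and 8.5 in the sparser class. The density of dense regions had a median of 0.0769 CpGs per base, with 322 regions at 0.1 or more and 59 at 0.2 or more. In the plot of length against CpG number the dense regions lie to the left of the line for 0.05 CpGs per base, and the row of 10 CpGs holds the 549 and 674 regions counted above.

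**Figure D1:**
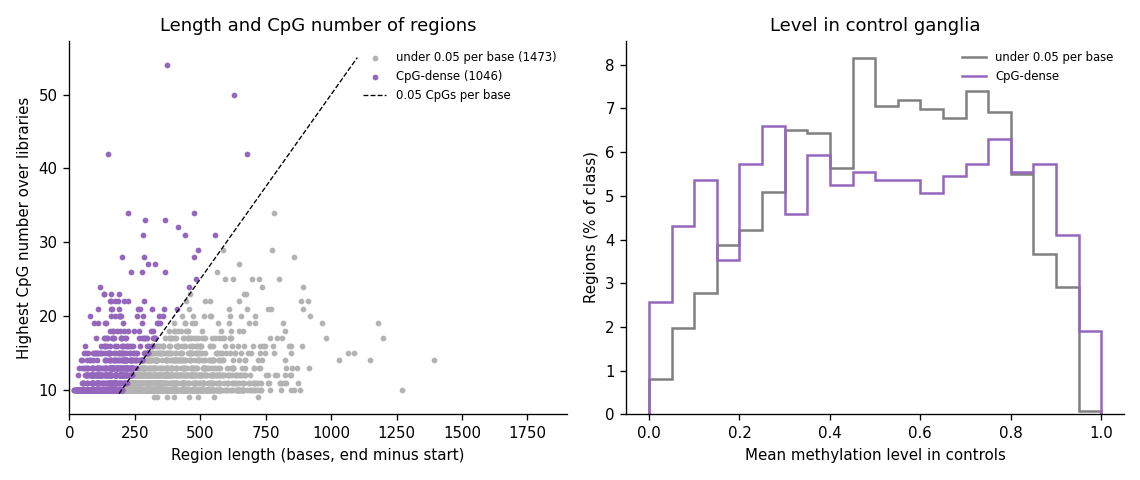
Left, length of each region in bases against the highest CpG number that any library listed for it, with the 1046 dense regions in purple, the 1473 sparser regions in grey and a dashed line at 0.05 CpGs per base. Right, share of each class by its mean methylation level over control libraries, in steps of 0.05 on an axis from 0 to 1: the dense class is flatter, with more regions near both ends.

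The regions just inside the limit, each at 0.05 CpGs per base, were chr10:105990217-105990417, chr11:30246513-30246753 and chr15:43208521-43208741, with mean control levels of 0.0769 ± 0.0705 (SD, n = 10), 0.761 ± 0.130 (n = 9) and 0.192 ± 0.161 (n = 10). Those just outside were chr2:116723881-116724142, chr8:93020877-93021339 and chr1:33758932-33759153, with mean control levels of 0.638 ± 0.279 (n = 4), 0.0416 ± 0.0583 (n = 10) and 0.718 ± 0.133 (n = 6). Low and high levels were found on both sides of the limit.

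At the other end, the densest regions were listed with 10 CpGs in as few as 19 bases, a density of 0.526. A CpG spans 2 bases, so 10 separate sites would need more than 19 bases. How starts and strands are counted is not given, so the number of separate sites there is uncertain. Methylation varied widely from region to region among the densest. At chr13:42128505-42128524 the control libraries ran from 0.377 through a median of 0.775 to 1.00 (n = 9), and the CFA libraries from 0 through 0.250 to 0.860 (n = 8). Control 1, at 1.00, had a value for 1 CpG and control 4, at 0.4, for 2. At chr1:225865617-225865636 the control values were 0.416, 0.329, 0.470, 0.120 and 0.250, and the CFA values ran from 0.300 through 0.620 to 0.9 (n = 7). At chr6:42059889-42059908 the controls had a median of 0.512 (0.479 to 1.00, n = 7), and the CFA values were 0.660, 1.00, 0.672, 0.529 and 0.5. The groups overlapped at each of these positions. The next 2 in density, chr11:71973261-71973284 and chr14:95467614-95467637, held 10 CpGs in 23 bases and were highly methylated, with control means of 0.933 ± 0.121 (n = 6) and 0.841 ± 0.162 (n = 9).

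Dense regions were spread over all the chromosomes listed, with 119 on chromosome 1, 96 on chromosome 3, 81 on chromosome 7 and 80 on chromosome 10. They made up between 27.1% of the regions listed for chromosome 11 and 53.8% for chromosome 2 among the autosomes. On chromosome X they were 27 of 40 regions (67.5%). The median control level of the dense regions on X was 0.684, against 0.502 on the autosomes, with 7 of the 27 below 0.2 and 9 at 0.8 or more. No test was made of these counts.

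Coverage is not given in the files, so the depth behind a level is unknown. What can be read is whether a region was listed in a library and for how many CpGs. Of the 1046 dense regions, between 838 and 922 were listed in each control library and between 845 and 958 in CFA 1 to 7. CFA 8, 9 and 10 listed 438, 438 and 358. In the 17 other libraries 5.47% to 10.6% of the listed dense regions stood at exactly 0 or exactly 1, whereas in CFA 8, 9 and 10 this share was 33.8%, 35.8% and 38.8%. These 3 libraries also listed fewer of a region's CpGs, on average 68.2% to 70.3% of the highest number, against 80.7% to 88.4% in the others. Their typical distance from the control mean of the same region was 0.275 to 0.290, against 0.113 to 0.136 in CFA 1 to 7 and 0.0838 to 0.106 in each control measured against the other controls. CFA 8, 9 and 10 thus stood apart in the dense regions, and the values of the contrast are given with and without them. They did so in the sparser regions as well, of which they listed 44.2% to 51.9%, against 90.8% to 98.8% in the others.

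**Figure D2:**
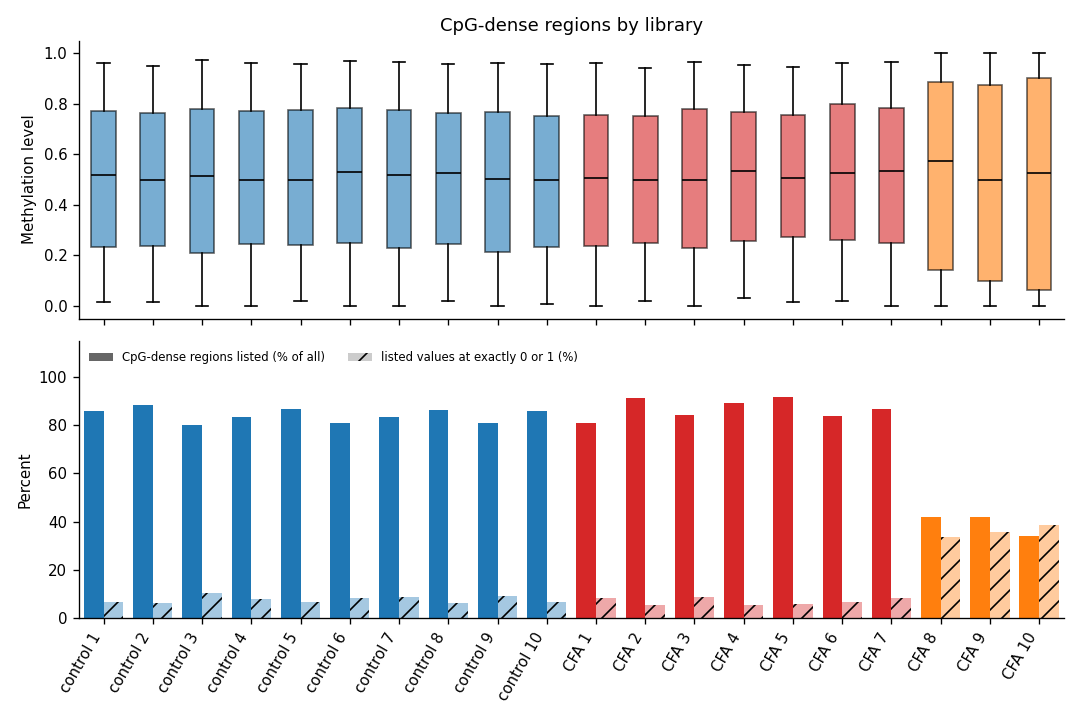
Top, methylation level of the listed CpG-dense regions in each library on a scale from 0 to 1, with the median as a line, the quartiles as a box and the 5th and 95th percentiles as whiskers. Bottom, solid bars give the share of the 1046 dense regions that each library listed and hatched bars the share of those values at exactly 0 or 1, with controls in blue, CFA 1 to 7 in red and CFA 8, 9 and 10 in orange: the last 3 list 34.2% to 41.9% and have 33.8% to 38.8% at the ends.

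Dense regions were listed less fully than sparser ones. A dense region had a value in a median of 16 libraries and a sparser one in 18, and 62 dense regions (5.93%) against 146 sparser ones (9.91%) had a value in all 20. Each of the 20 libraries listed a smaller share of the dense than of the sparser regions. For 275 dense regions none of CFA 8, 9 and 10 had a value.

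The general level of the dense regions depended on which regions were counted. The median over the listed dense regions lay between 0.5 and 0.529 in the 10 controls, between 0.498 and 0.534 in CFA 1 to 7, and at 0.573, 0.5 and 0.525 in CFA 8, 9 and 10. These are medians over partly different regions in each library. Over the 62 dense regions that every library listed, the medians were 0.477 to 0.581 in controls, 0.457 to 0.557 in CFA 1 to 7 and 0.380, 0.259 and 0.320 in CFA 8, 9 and 10. With the regions held fixed, the latter 3 libraries were the lowest of the 20. The mean of these medians was 0.534 ± 0.0327 (SD, n = 10) in controls, 0.493 ± 0.0326 (n = 7) in CFA 1 to 7 and 0.320 ± 0.0607 (n = 3) in CFA 8, 9 and 10. The ranges of controls and CFA 1 to 7 overlapped, and no test was made over the regions of this list.

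In control ganglia the dense regions were not mostly unmethylated. Their mean control level had a median of 0.503 with quartiles of 0.278 and 0.736. Of the 1046, 165 (15.8%) had a control mean under 0.2, 700 (66.9%) one from 0.2 to 0.8 and 181 (17.3%) one of 0.8 or more. The sparser regions were more often intermediate, with 139 (9.44%), 1155 (78.4%) and 179 (12.2%) in these classes. Below 0.1 or at 0.9 and above stood 135 dense regions (12.9%) and 85 sparser ones (5.77%). Among dense regions, the share at 0.8 or more was 13.8% at a density of 0.05 to 0.075, 14.8% at 0.075 to 0.1, 24.0% at 0.1 to 0.2 and 27.1% at 0.2 or more, and the share under 0.2 was 18%, 16.1%, 13.3% and 6.78%. Within the list, then, more of the densest regions had high levels, beside a median length that went from 187 to 130, 89 and 41 bases over the same steps. These counts are over regions of a list chosen for a difference and were not tested.

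The spread between control libraries was wide. Its median SD was 0.146 over dense and 0.134 over sparser regions. It was 0.173 for dense regions with intermediate control means, 0.101 for those under 0.2 and 0.0855 for those at 0.8 or more, near the ends of the scale where a level has less room to vary. The SD was smaller where the controls listed more of a region's CpGs, with a median of 0.176 in the 349 dense regions with the lowest share, 0.154 in the next 348 and 0.111 in the 349 with the highest. In CFA the median SD over dense regions was 0.177 with all 10 libraries and 0.131 without CFA 8, 9 and 10.

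The comparison of CFA with control ganglia asked where methylation differed in the inflamed state. Of the 1046 dense regions, 964 had values in at least 5 libraries per group and were tested, among 2434 regions tested in all. The other 82 had too few values. By limma with Benjamini-Hochberg adjustment over the 2434 regions, 2 dense regions passed the threshold of 0.05, both lower in CFA, and 0 were higher. The share of all tested regions called was 0.0822%, and the 2 calls among dense regions were the only ones. At an unadjusted p under 0.05 there were 135 dense regions with higher and 134 with lower values in CFA, together 27.9% of those tested, beside 32.7% of all regions tested. The corresponding shares were 26.6% and 27.3% on the logit scale and 37.1% and 38.4% with at least 8 libraries per group, and their difference was not tested. Without CFA 8, 9 and 10 the same 2 regions passed and 0 were higher (0.0856% of 2337 regions), with 133 higher and 123 lower values at an unadjusted p under 0.05 among 897 dense regions (background 31%).

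The first called region, chr10:91065538-91065747, lost most of its methylation in the CFA libraries. It spanned 209 bases with up to 18 CpGs. In controls 1, 2, 5, 8, 9 and 10 the level ran from 0.670 through a median of 0.796 to 0.837, and controls 3, 4, 6 and 7 had no value. The CFA values were 0.404, 0.367, 0.277, 0.444 and 0.397 in CFA 1 to 5, 0.233 in CFA 7, and 0 in CFA 9 and CFA 10. Every CFA value lay below every control value. The mean fell from 0.781 ± 0.0609 (SD, n = 6) to 0.265 ± 0.177 (n = 8), a difference of -0.516 (SE 0.0776, limma adjusted p = 0.00497). The value of CFA 10 came from 2 CpGs. Without CFA 8, 9 and 10 the difference was -0.428 (SE 0.0511, limma adjusted p = 0.00210).

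The second, chr1:29966126-29966335, also spanned 209 bases and held up to 14 CpGs. Controls ran from 0.246 through a median of 0.650 to 0.791 (n = 10), and CFA libraries from 0 through 0.224 to 0.360 (n = 9). Control 9, at 0.246, was the single control inside the CFA range, and the next control stood at 0.524. CFA 8 and 9 were at 0, over 13 and 3 CpGs, and CFA 10 had no value. The mean fell from 0.626 ± 0.161 to 0.211 ± 0.134, a difference of -0.415 (SE 0.0685, limma adjusted p = 0.00497). Without CFA 8, 9 and 10 it was -0.355 (SE 0.0643, limma adjusted p = 0.0322). On a logit scale neither region passed (limma adjusted p = 0.129 for both), and there were then 0 calls in either direction.

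A group of further regions had lower values in CFA without passing the threshold. At chr3:148384682-148384883, which held up to 28 CpGs in 201 bases, controls ran from 0.802 through 0.858 to 0.950 and CFA libraries from 0.167 through 0.584 to 0.793, with no overlap in 10 against 10 libraries. All 28 CpGs were listed in every control and between 17 and 28 of them in the CFA libraries. The difference was -0.309 (SE 0.0659, limma adjusted p = 0.0558), and -0.229 without CFA 8, 9 and 10 (limma adjusted p = 0.0778). At chr13:42128505-42128524, among the densest regions and described above, 6 of 8 CFA libraries lay below every control, and the difference was -0.442 (SE 0.113, limma adjusted p = 0.0999). At chr18:49143564-49143655, with 10 CpGs, controls ran from 0.106 through 0.278 to 0.444 and CFA libraries from 0.0236 through 0.0815 to 0.230, with 7 of 10 CFA libraries below every control (difference -0.187, SE 0.0491, limma adjusted p = 0.0999). The last 2 differences were -0.401 and -0.164 without CFA 8, 9 and 10 (limma adjusted p = 0.113 for both).

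Complete separation of the groups was rare. It was seen in 3 of the 964 dense regions tested, all lower in CFA and none higher. Of all tested regions, 0.205% separated in either direction, 0.123% lower and 0.0822% higher in CFA. Besides chr10:91065538-91065747 and chr3:148384682-148384883 it was seen at chr2:179864697-179864834, singled out after its values were seen. There the controls formed a narrow band from 0.507 through 0.547 to 0.567 (n = 10), and the CFA libraries ran from 0.300 through 0.439 to 0.491 (n = 9). All 10 CpGs were listed in each library with a value. The difference was -0.111 (SE 0.0384, limma adjusted p = 0.129) with all libraries, and -0.0911 without CFA 8, 9 and 10. Without those 3 libraries 4 of 897 dense regions separated, all lower in CFA, beside 0.3% of all regions in either direction, 0.171% lower and 0.128% higher.

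Among higher values in CFA, the smallest p belonged to chr14:49206508-49206581, with 10 CpGs in 73 bases. Controls ran from 0.424 through 0.539 to 0.735 and CFA libraries from 0.645 through 0.783 to 0.919 (n = 10 each), with 6 CFA libraries above every control. Control 8, at 0.735, reached into the CFA range. The difference was 0.226 (SE 0.0489, limma adjusted p = 0.0558), and 0.211 without CFA 8, 9 and 10. At chr19:50039957-50040096 controls ran from 0.108 through 0.167 to 0.563 (n = 7) and CFA libraries from 0.412 through 0.780 to 1.00 (n = 8), a difference of 0.479 (SE 0.101, limma adjusted p = 0.0572). CFA 10, at 1.00, had 3 CpGs there. The difference was 0.489 without CFA 8, 9 and 10 (limma adjusted p = 0.0809).

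The remaining regions with the smallest p and higher values were chr5:153264308-153264443, chr1:245704460-245704614 and chr7:9930878-9930988, with differences of 0.313, 0.429 and 0.388 (limma adjusted p = 0.0903, 0.0903 and 0.0960). Their controls spread widely, from 0.317 to 0.882, from 0 to 0.755 and from 0.122 to 0.683, and the groups overlapped in each. The lowest CFA values were 0.675, 0.417 and 0.360. Their differences were 0.313, 0.398 and 0.388 without CFA 8, 9 and 10 (limma adjusted p = 0.0809, 0.113 and 0.0917). Some values came from few sites. At chr1:245704460-245704614 controls 3 and 6, at 0.7 and 0, had 4 and 3 CpGs, and CFA 1 and 10, both at 1.00, had 4 and 1. At chr7:9930878-9930988 CFA 4, 5 and 6, at 0.7625, 0.75 and 1.00, had 4, 4 and 2 CpGs.

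**Figure D3:**
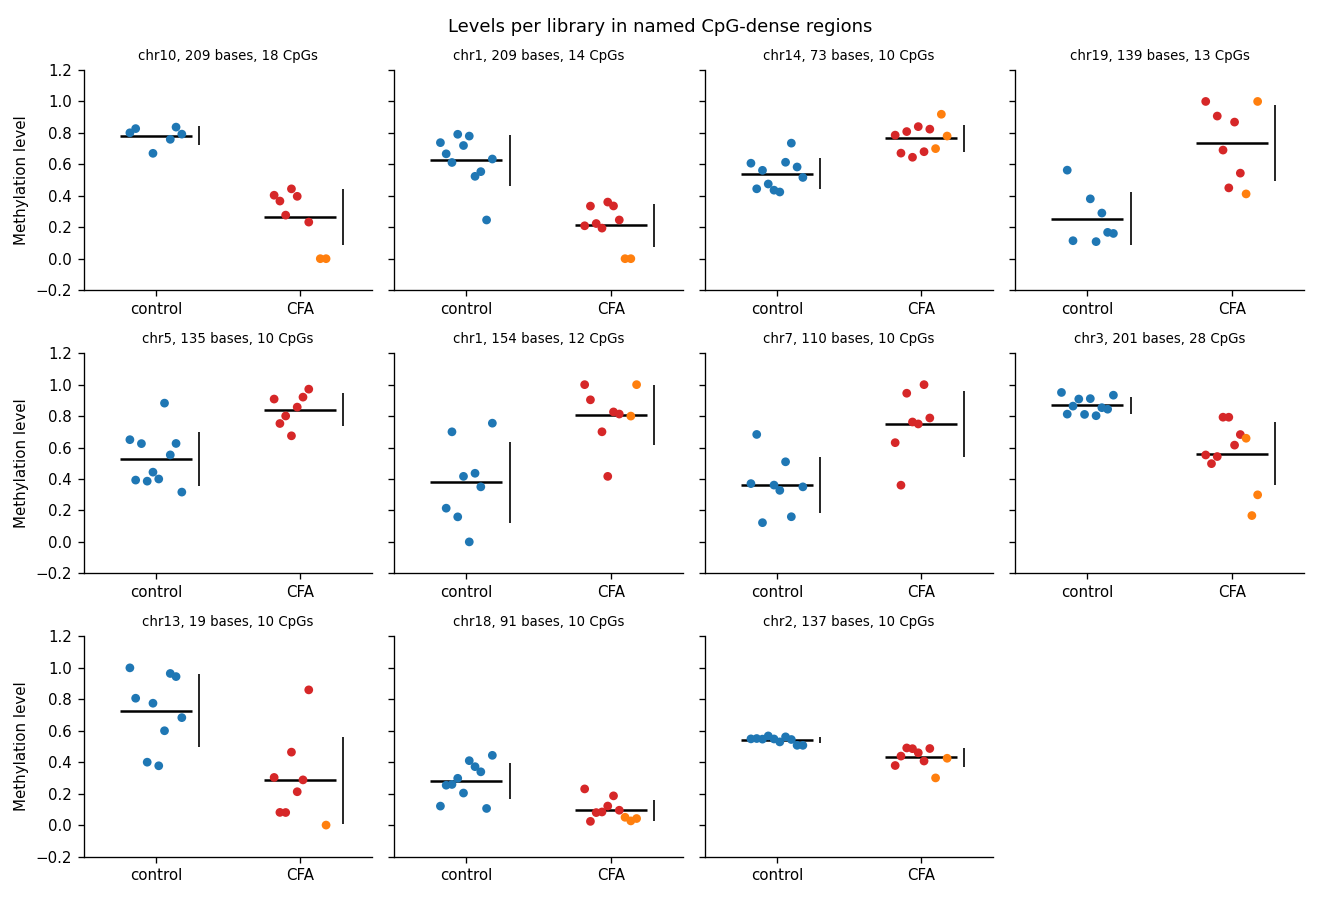
Methylation level per library in the 5 CpG-dense regions with the smallest p in each direction, called ones included, and in a further region whose groups did not overlap (chromosome 2). Blue points are controls, red points CFA 1 to 7 and orange points CFA 8, 9 and 10, with horizontal lines for group means and vertical lines for 1 SD each way: the groups separate at the panels for chromosome 10, chromosome 3 and chromosome 2, and overlap in the others.

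Regions listed in all 20 libraries showed how far CFA 8, 9 and 10 carried single values. At chr2:848073-848487, with up to 32 CpGs, the controls ran from 0.0576 through 0.138 to 0.201. CFA 1 to 7 had a mean of 0.169, and CFA 8, 9 and 10 stood at 0.720, 0.846 and 0.333, over 12, 13 and 12 CpGs. The difference was 0.180 with all libraries and 0.0405 without these 3. At chr5:167100767-167101082 the controls had a median of 0.142 and CFA 8, 9 and 10 stood at 0.6, 1.00 and 0.771, the first 2 from 2 CpGs each. The difference there was 0.199 with and 0.0168 without them. In both regions the size of the difference rested mainly on these 3 libraries, and the CFA mean stayed higher without them. CFA libraries above the control mean numbered 10 of 10 in the first region and 6 of 10 in the second.

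Other complete regions were less affected. At chr2:6606636-6606687 the difference was 0.181 with all libraries and 0.146 without CFA 8, 9 and 10, and at chr7:139042479-139043158, which held up to 42 CpGs, 0.176 and 0.0858. In the first, control 5 and CFA 5, both at 0, had 3 and 1 CpGs. In the second, the highest control (control 1, 0.75) had 2 CpGs and the highest CFA library (CFA 10, 0.92) had 5. Among complete regions with lower values, chr8:68480229-68480375 was measured at all 42 of its CpGs in each of the 20 libraries. Its controls ran from 0.120 through 0.660 to 0.755 and its CFA libraries from 0.00105 through 0.241 to 0.773, with CFA 8, 9 and 10 at 0.00479, 0.00105 and 0.131. The difference was -0.279 with all libraries and -0.172 without these 3, so that even with all sites listed the libraries of 1 group differed by more than the group means. At chr8:53701254-53701437, chr13:40660397-40660562 and chr7:120110585-120110914 the differences were -0.269, -0.235 and -0.225, and -0.301, -0.216 and -0.136 without CFA 8, 9 and 10. In the first of these, which held up to 11 CpGs, some values came from few sites. Controls 3 and 8, at 0.5 and 1.00, had 1 CpG each there, and CFA 10, at 0.25, had 2. None of the regions in these 2 paragraphs passed the threshold in either fit.

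Over all dense regions tested, 501 had higher and 463 lower means in CFA (52.0% higher), beside 53.0% higher over all 2434 regions. The counts were 452 and 445 without CFA 8, 9 and 10. Differences near 0 were scarce, with 18 of 964 (1.87%) smaller than 0.03 in size and 42 (4.36%) smaller than 0.05. Over all regions the shares were 3.66% and 6.82%. Among dense regions they were 6.69% and 12.0% without CFA 8, 9 and 10. In the plot of group means over all libraries this appears as a sparse band along the diagonal. The median difference was 0.0512 over dense regions and 0.0515 over all, and 0.00488 and 0.0193 without CFA 8, 9 and 10. With few values near 0, it depends on which side of the band held more regions. Dense regions were 39.6% of the regions tested, 29 of the 49 with a difference of 0.3 or more in size and 7 of the 7 at 0.4 or more. Dense regions had a median SE of 0.0815 and all regions one of 0.0771. With CFA 8, 9 and 10 left out, 22 of 33 and 3 of 5 were dense. These counts were not tested.

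The direction followed the starting level. Of 153 tested dense regions with a control mean under 0.2, 123 were higher in CFA. Of 165 with a control mean of 0.8 or more, 36 were higher, and of the 646 between, 342. These counts were 106 of 139, 34 of 153 and 312 of 605 without CFA 8, 9 and 10. A level near an end of the scale can move mainly one way, and the control mean enters both the class and the difference, so no more is read from these counts. Of 54 tested regions with a density of 0.2 or more, 21 were higher and 33 lower, and 20 had an unadjusted p under 0.05 (37.0%, beside 32.7% of all regions). Of 48 tested without CFA 8, 9 and 10, 20 were higher.

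Leaving out CFA 8, 9 and 10 turned the sign of 26 of 897 dense regions (2.90%). Only the 664 of these with a value in at least 1 of the 3 libraries could change. None of the 258 with an unadjusted p under 0.05 in the full set changed sign. Those 258 were picked for a small p in a fit that shares the other libraries. A turn of sign among them was thus unlikely beforehand, and no stability is read from its absence. The p itself moved more. Of these 258, 182 stayed under 0.05, 76 did not, and 74 others came below it. In 664 dense regions with a value in at least 1 of the 3 libraries, the difference moved by a median of 0.0380 and by up to 0.232. In 135 of them (20.3%) the mean of CFA 8, 9 and 10 lay on the other side of the control mean from that of CFA 1 to 7. The share of dense regions with a difference of 0.1 or more in size was 75.5% with and 60.9% without the 3 libraries.

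**Figure D4:**
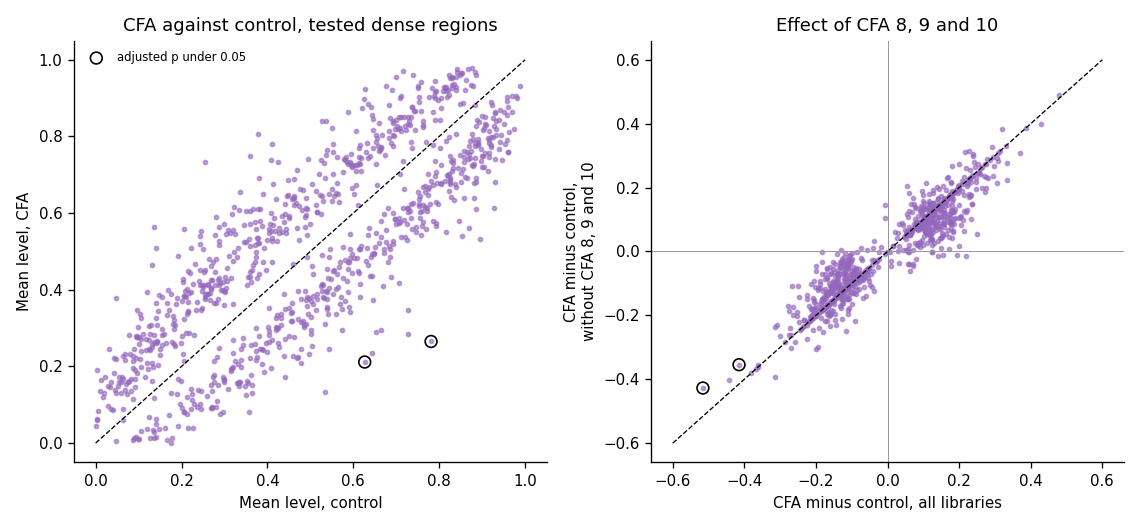
Left, mean level in CFA against mean level in controls for the 964 dense regions tested, with the dashed line at equality and circles around the 2 called regions, below the line. Right, CFA minus control with all libraries against the same without CFA 8, 9 and 10 for 897 dense regions: few points lie near 0 on the horizontal axis, and 26 change sign.

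Some dense regions were neighbours. In 42 pairs, made of 76 regions, the next dense region began less than 1000 bases away. Of these pairs, 15 had higher means in CFA at both members, 8 had lower means at both and 19 pointed in opposite directions. Among the 7 pairs less than 20 bases apart, 5 were opposite, a spacing chosen after the values were seen. Without CFA 8, 9 and 10, 14 of the 42 pairs were higher at both, 8 lower at both and 20 opposite, and 6 of the 7 closest were opposite. At chr13:40660079-40660390 the mean was 0.695 ± 0.250 (n = 9) in controls and 0.801 ± 0.105 (n = 8) in CFA, and 7 bases on, at chr13:40660397-40660562, it was 0.590 ± 0.180 and 0.355 ± 0.174 (n = 10 each). The closest pair, chr17:49018783-49018983 and chr17:49018987-49019190, was 4 bases apart. Its control means were 0.204 and 0.387, and its CFA means 0.233 and 0.207. At chr2:193075665-193075726 and chr2:193075735-193075824 the control means were 0.292 and 0.353 and the CFA means 0.4 and 0.163. The region beside chr19:50039957-50040096, chr19:50039793-50039946, had 0.710 ± 0.162 in controls and 0.851 ± 0.120 in CFA (n = 7 each), on the same side as its neighbour. The sources used here do not say how the authors set the borders between regions.

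The longest run of neighbours held 6 dense regions within 1599 bases on chromosome 18, singled out after its values were seen. The first 3, chr18:49142056-49142191, chr18:49142288-49142457 and chr18:49142540-49142697, had control means of 0.532 ± 0.231, 0.537 ± 0.313 and 0.489 ± 0.186 (n = 10 each). Their CFA means were 0.731 ± 0.245 (n = 8), 0.841 ± 0.115 (n = 9) and 0.595 ± 0.180 (n = 10), all higher. Next to them, chr18:49142702-49143069, with up to 33 CpGs, averaged 0.237 ± 0.171 in controls and 0.0929 ± 0.0441 in CFA. The last 2, chr18:49143406-49143489 and chr18:49143564-49143655, averaged 0.410 ± 0.137 and 0.280 ± 0.115 in controls and 0.534 ± 0.188 and 0.0936 ± 0.0685 in CFA. Levels thus stepped down and up again along the run in both groups, and the steps were larger in CFA. Limma's adjusted p lay between 0.0999 and 0.272 in these 6 regions. Without CFA 8, 9 and 10 the CFA means were 0.728, 0.830, 0.621, 0.112, 0.549 and 0.117, on the same side of the control means.

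**Figure D5:**
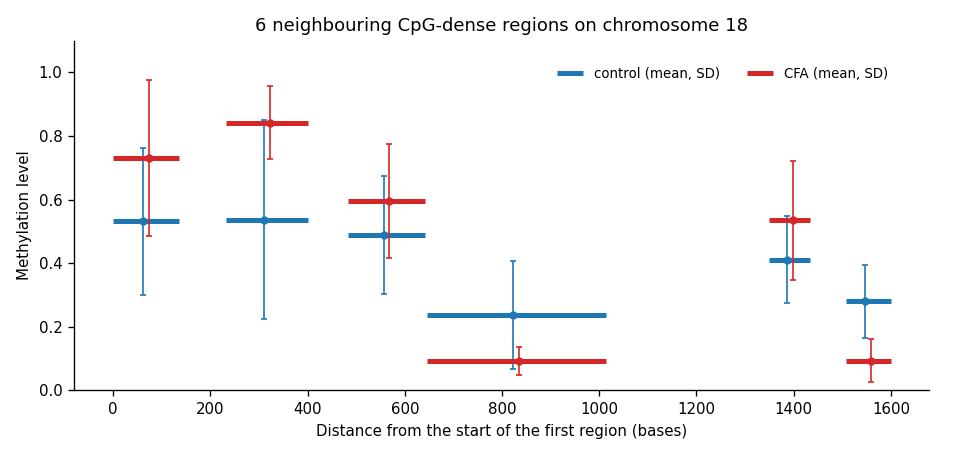
Mean methylation level of 6 neighbouring CpG-dense regions on chromosome 18 against distance in bases from the start of the first. Thick lines span each region, points and bars give the mean and 1 SD, with controls in blue and CFA in red: CFA is higher in the first 3 regions and the fifth, and lower in the fourth and sixth.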

How the data were processed

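Bisulfite libraries of dorsal root ganglia, 10 control and 10 CFA, were used. The mRNA and small RNA counts of the series were not used here. The deposited files give per region a fraction, the mean methylation level, and a count of CpG sites, per the file headers. The submitters' processing notes name Trim Galore 0.6.4, Bismark 0.22.0 and the build rn4 for the series. How regions were chosen, whether starts count from 0 or 1, and whether the 2 strands of a CpG count once is not given in these sources. No coverage is given, so precision can be read only from the spread between libraries.

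Regions were joined by chromosome, start and end. Levels were tested with limma 3.58.1 in R 4.3.3 (robust empirical Bayes, two-sided, CFA minus control) in regions with values from 5 or more libraries of each group, with Benjamini-Hochberg adjustment over all regions at 0.05; missing values were left out, not imputed. The fit was tested on simulated normal levels, which were not held between 0 and 1 and had no differences between libraries. That test checked that planted shifts were estimated. It cannot show how the fit behaves with values piled at 0 or 1. Density, lists and members were chosen with earlier results of these data known. Named regions were the called ones, the 5 with the smallest p and the 5 largest complete differences per direction, the 5 densest, those beside the density limit and close pairs. Exceptions are marked. Alternatives were a logit scale (offset 0.01), other minimum numbers of libraries, weights, a replicate block, other density limits, and leaving out libraries. A minimum of 5 CpGs per value and lengths of end minus start plus 1 were chosen after seeing the data.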

Additional observations from a re-analysis of the deposited data

Results flagged for a closer look

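A library at a distance from the rest of its group was looked for in 46 sets of values of the named dense regions and of the library measures. In data without distant libraries about 1 set in 20 would show one, and 3 were found. At chr1:29966126-29966335 control 9 stood at 0.246 over 13 CpGs, with the other 9 controls between 0.524 and 0.791. At chr2:6606636-6606687 control 9 stood at 0.362 over 8 CpGs, with the other controls between 0 and 0.141. The median level over listed dense regions was 0.573 in CFA 8, with the other 9 CFA libraries between 0.498 and 0.534.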

How the results depend on the processing

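The number of dense regions was 1425 at a limit of 0.04 CpGs per base, 799 at 0.06, 846 with the median in place of the highest CpG number and 1038 with a length of end minus start plus 1. Calls higher in CFA numbered 1 with at least 8 libraries per group, 1 in regions with a value in all 20 libraries, 1 with values from at least 5 CpGs and 1 with weights by CpG number. Calls lower in CFA numbered 0 on the logit scale. Over all regions there were 6 calls with at least 8 libraries per group, 0 on the logit scale, 10 in regions complete in all 20 libraries (where 208 regions were tested), 6 with at least 5 CpGs and 4 with the weights. The region at chr14:49206508-49206581 was the one called higher and chr3:148384682-148384883 was called lower under each of these 4 settings, with limma adjusted p of 0.00780 to 0.0470 and 0.00780 to 0.0361. Of the 2 regions called in the main fit, chr10:91065538-91065747 had 6 control values and was not tested with at least 8 libraries per group. Neither it nor chr1:29966126-29966335, with 9 CFA values, was among the complete regions.

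The median difference was -0.0469 with at least 8 libraries per group, -0.105 in complete regions, 0.0181 with library quality weights and 0.00488 without CFA 8, 9 and 10. For the complete dense regions, the median over libraries of each library's median level was 0.544 in controls and 0.477 in CFA. The median of the region means was 0.534 in controls and 0.412 in CFA. Leaving out 1 library at a time gave 0 to 2 calls higher and 2 to 4 lower in dense regions, 2 to 8 over all regions, and median differences of 0.0281 to 0.0469. Calls higher numbered 2 without CFA 5 and 1 without CFA 2, 4, 7 or 8 or control 2, 7 or 8, and calls lower 4 without CFA 7. Both called regions passed each time (limma adjusted p up to 0.0210). No region named for its difference changed sign under these settings.

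Same-numbered control and CFA libraries did not deviate together (r from -0.0227 to 0.0362), so the numbers were not taken as pairs. With the replicate number as a block, 803 dense regions were tested, 1 was called lower (chr1:29966126-29966335, limma adjusted p = 0.00696), 1 was called over all regions and the median difference was 0.0136. The call at chr10:91065538-91065747 was lost, with a difference of -0.552 and a limma adjusted p of 0.111. The block used differences between same-numbered libraries, so a library whose partner had no value dropped out. At this region numbers 1, 2, 5, 9 and 10 remained, with CFA 9 and CFA 10 at 0. Some settings left smaller numbers of regions or libraries, and the cause of these changes was not tested. With no coverage given, depth sets no limit that could be computed.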
